A study of Mus musculus with 6 samples.

Results

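The interferon regulatory factors (IRFs) examined here were Irf1, Irf2, Irf3, Irf4, Irf5, Irf7, Irf8 and Irf9, chosen by gene symbol and not by any measured value. Of these 8 genes, 7 were among the 35237 genes of a Cufflinks FPKM table (fragments per unit of exon length and of mapped fragments) and all 8 were among the 36536 entries of an ALEXA-Seq table made from the same libraries. Irf8 was not analysed by FPKM here and is described from ALEXA-Seq alone. RNA-Seq libraries came from 3 sets of bone marrow monocytes (BMDM) and 3 sets of brainstem microglia (BSM), flow-sorted from pooled, unmanipulated C57BL/6 mice at 6 weeks of age, and the comparison asks which transcripts tell the resident cells of the brain from marrow monocytes. BMDM were sorted as CD45-high, CD115-positive and BSM as CD45-low, CD115-low cells, both CD11b-positive and Ly6G-negative, so the sort used no IRF. By the labels, and by the study's own sample list, replicate 1 of each cell type was male and replicates 2 and 3 were female, although its running text names male mice.

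IRFs are transcription factors that share a tryptophan-rich DNA-binding domain reading GAAA repeats, the core of the interferon-stimulated response element (ISRE). IRF3, IRF5 and IRF7 lie dormant in the cytoplasm until kinases downstream of Toll-like and nucleic acid receptors phosphorylate them, after which they switch on interferon genes, while IRF9 joins STAT proteins in the complex that carries the interferon signal to the nucleus. IRF1 activates and IRF2 mostly represses through the same elements, and IRF4 and IRF8 act in blood cells with partners such as PU.1. IRF8 is required for monocyte development in the marrow and for normal microglia in the brain.

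The sequences just upstream of the RefSeq starts were searched for letters that bear on how these genes are read by their own pathway. The gamma-activated sequence (GAS, TTCNNNGAA, its own reverse complement), which dimers of STAT proteins bind, was found in 3 of the 8 members, Irf1, Irf2 and Irf8, against 8.13% of 27025 genes and 7.02% of their 32851 upstream windows of 250 bases. An ISRE core (GAAA, any 2 bases and GAAA again, on either strand) was found in Irf2 alone, against 3.46% of genes, and a PU.1 core (GAGGAAGT on either strand) in no member, against 2.79% of genes. Neither motif overlapped the other in the window of Irf2. Irf1, Irf8 and Irf9 each had another RefSeq start, whose window held none of these motifs. The 3 windows with a match are shown 5′ to 3′ on the plus strand of GRCm38.p6, with the matches in capitals. They belong to the activator Irf1, the repressor Irf2 and Irf8, which both cell types need. A match is a description of letters and not of binding.
Irf1, chr11:53769764-53770013: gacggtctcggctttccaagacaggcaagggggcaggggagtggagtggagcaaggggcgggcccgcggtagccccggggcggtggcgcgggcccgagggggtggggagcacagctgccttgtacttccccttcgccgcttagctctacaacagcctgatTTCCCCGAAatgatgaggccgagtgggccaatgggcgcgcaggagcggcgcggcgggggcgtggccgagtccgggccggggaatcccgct
Irf2, chr8:46739495-46739744: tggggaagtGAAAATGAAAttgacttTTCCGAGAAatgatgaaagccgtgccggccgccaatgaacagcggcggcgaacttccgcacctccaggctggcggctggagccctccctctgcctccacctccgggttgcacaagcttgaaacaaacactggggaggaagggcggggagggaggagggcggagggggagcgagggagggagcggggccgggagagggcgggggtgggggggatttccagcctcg
Irf8, chr8:120736108-120736357: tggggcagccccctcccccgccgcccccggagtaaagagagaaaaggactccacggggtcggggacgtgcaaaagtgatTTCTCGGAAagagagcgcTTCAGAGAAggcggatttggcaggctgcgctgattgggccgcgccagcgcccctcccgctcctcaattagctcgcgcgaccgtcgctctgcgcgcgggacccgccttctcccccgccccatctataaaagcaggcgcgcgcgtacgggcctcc
In Irf1 the GAS lay 90 to 82 bases before the RefSeq start next to the window shown. In Irf2 the ISRE core lay 241 to 232 and the GAS 224 to 216 bases before it, and in Irf8 a pair of GAS matches lay 171 to 163 and 153 to 145 bases before it.

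In the FPKM table, whose positions are of the mm9 build, Irf1 lay at chr11:53583516-53591876, Irf2 at chr8:47825115-47932801, Irf3 at chr7:52253018-52258218, Irf4 at chr13:30841095-30858796, Irf5 at chr6:29476707-29487312, Irf7 at chr7:148448605-148452380 and Irf9 at chr14:56222408-56228867. Irf7 is on the minus strand in GENCODE M21 and the others on the plus strand. Some exonic bases are shared with a neighbour there, 14.1% in Irf5 (with the antisense Tnpo3), 3.40% in Irf1, 2.56% in Irf3, 2.28% in Irf9 (with Rnf31 on the same strand) and 1.19% in Irf7. No source used here states that reads were counted by strand, so the values of these members hold an uncertain share of their neighbours' reads.

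FPKM summed over all genes came to 163198.7 to 194184.2 in BMDM and 68287.8 to 75021.4 in BSM, a ratio of 2.50 between the group means (2.45 in ALEXA-Seq), and neither table gives the reads behind a value. The median log2 fold change of all 6364 genes tested was 0.81 in favor of BMDM in FPKM and 0.84 in ALEXA-Seq, and each fold change below is to be read against that shift. With each library scaled to the same sum these medians were -0.23 and -0.41. BSM replicate 1 listed 24000 genes at an FPKM of 0, against 18260 to 20638 in the other 5 libraries. In the study's records this library had the poorest RNA integrity and the least RNA of all, although the most reads, and the part of RNA quality in its values was not tested. Markers of the sorted cells differed as labelled, in that all 5 microglia markers (P2ry12, Tmem119, Cx3cr1, Sparc, Olfml3) were higher in every BSM library, with summed FPKM of 583 to 649 against 6.75 to 8.42, and all 5 marrow monocyte markers (Ccr2, Ly6c2, Fn1, Vcan, Clec12a) were higher in every BMDM library, with 356 to 362 against 0.0393 to 1.04. Markers of neutrophils and granule-forming progenitors summed to 46.0 to 329 in BMDM, highest in replicate 2, and to at most 0.0714 in BSM, where Ly6g, Camp, Ltf, Elane and Prtn3 were at 0 in every library.

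**Figure D1:**
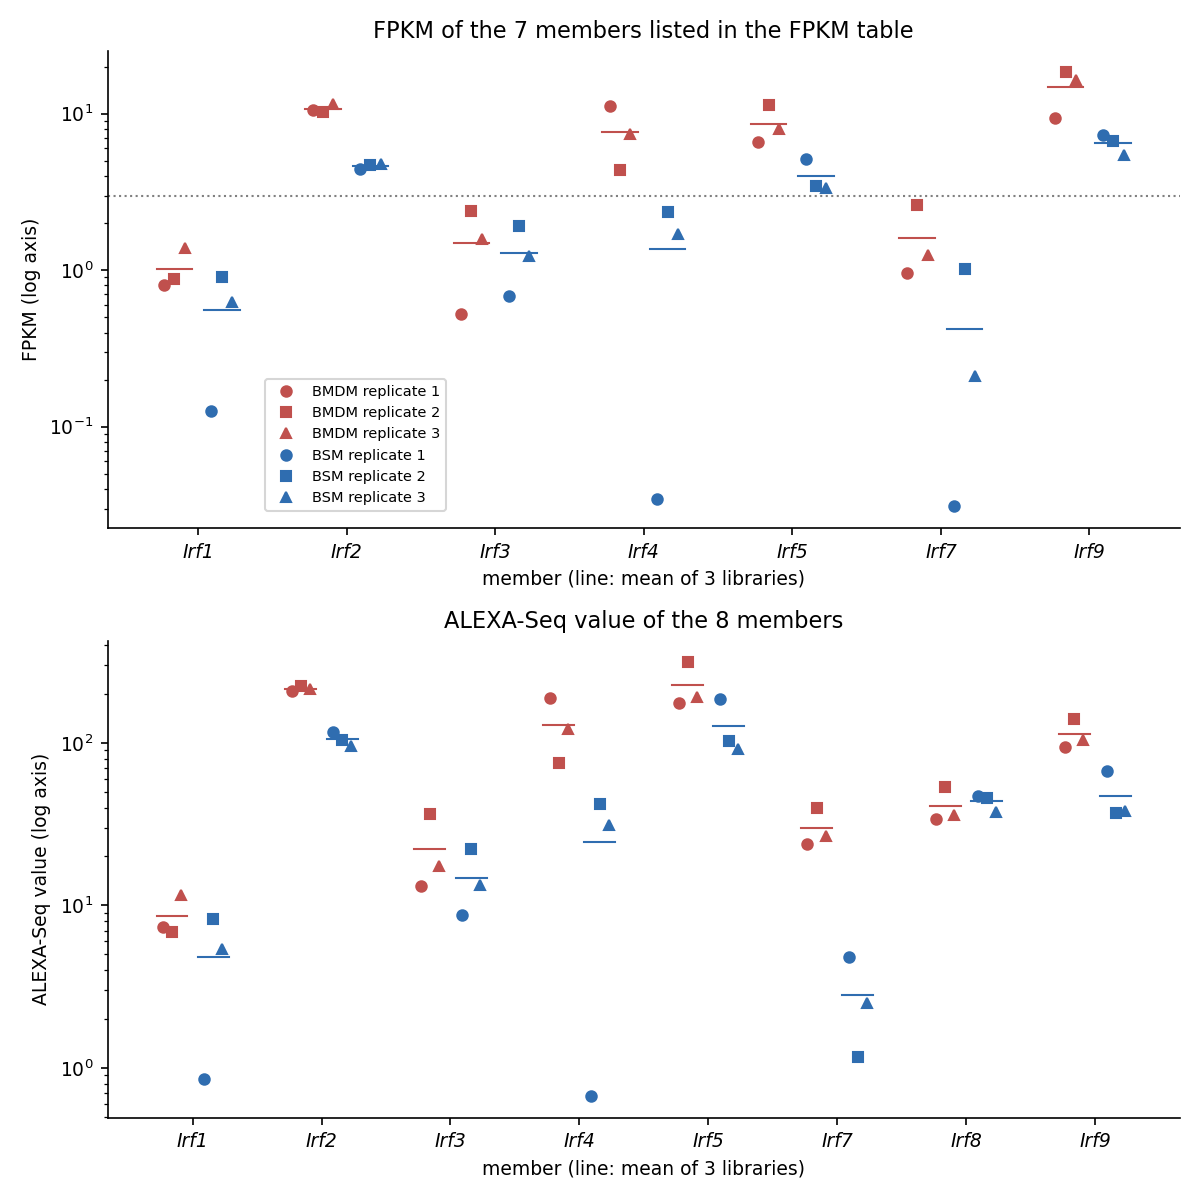
Values of each IRF in the 3 BMDM (red) and 3 BSM (blue) libraries on log axes, as FPKM for 7 members (above, the dotted line marking the minimum of 3 FPKM for testing) and as ALEXA-Seq values for all 8 (below), with a line at each group mean. In FPKM, Irf2, Irf4, Irf5 and Irf9 lay higher in every BMDM library than in any BSM library, and in ALEXA-Seq the libraries of the cell types overlapped for Irf8.

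By mean FPKM the family was led by Irf9, Irf2 and Irf5, in this order, in both cell types. In BMDM the mean FPKM ran from Irf9 (14.8) through Irf2 (10.8), Irf5 (8.64) and Irf4 (7.64) down to Irf7 (1.60), Irf3 (1.50) and Irf1 (1.02). Only the step from Irf4 to Irf7 separated neighbours whose libraries did not overlap. In BSM the order was Irf9 (6.47), Irf2 (4.64), Irf5 (3.98), Irf4 (1.36), Irf3 (1.28), Irf1 (0.555) and Irf7 (0.419). Here the steps from Irf9 to Irf2 and from Irf5 to Irf4 separated the libraries, while Irf2 and Irf5, and the 4 lowest members among themselves, overlapped in range. Compared within each library, Irf3 was above Irf1 in all 3 BSM libraries. The other overlapping neighbours in BSM kept their order in 2 of the 3. The 7 members together summed to 40.1, 50.2 and 47.5 FPKM in BMDM and to 17.7, 21.1 and 17.3 in BSM, which was 0.0246% to 0.0281% of each library's sum.

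Irf2, Irf4, Irf5 and Irf9 passed the minimum of 3 FPKM in at least 1 library, Irf4 through BMDM alone, and each had a higher FPKM in BMDM. All 4 were called in limma (adjusted p under 0.05 over the 6364 genes), where 45.3% of all genes tested were called with BMDM higher and 9.22% with BSM higher. None of the 4 had overlapping groups, as was true of 55.2% of all genes tested with BMDM above. Irf1, Irf3 and Irf7 stayed below 3 FPKM in every library. With the minimum lowered to 1 FPKM, at which 37.2% of 9637 genes were called for BMDM and 7.66% for BSM, none of these 3 was called, although Irf7 had an unadjusted p under 0.05, and all 3 overlapped between the cell types, where 49.8% of all genes had every BMDM library above. In ALEXA-Seq, 3 of the 6 members tested were called higher in BMDM (Irf2, Irf7 and Irf9) and 0 the other way, also at an unadjusted p under 0.05, where 37.1% and 10.9% of all genes were called. Irf2, Irf4, Irf7 and Irf9 had every BMDM library above every BSM library there, as had 51.5% of all genes tested. Other scalings changed the background as well as the members. In FPKM the shares of all genes called for BMDM and for BSM were 21.7% and 16.5% with upper quartile scaling, 21.7% and 19.3% after quantile normalization and 15.2% and 24.9% with each library scaled to the same sum, and 0 members were called under any of these. In ALEXA-Seq they were 18.9% and 18.2%, 22.6% and 21.2%, and 13.2% and 30.2%, with Irf7 called for BMDM under the first and the last and Irf8 for BSM under the last pair of scalings. Since the libraries are of bulk RNA, more cells of a type and more RNA per cell cannot be told apart in any of these values.

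Irf9, the DNA-binding subunit of the interferon-activated STAT complex, had the highest mean FPKM of the family in both cell types. It measured 9.44, 18.4 and 16.5 FPKM in BMDM replicates 1 to 3 and 7.27, 6.70 and 5.44 FPKM in BSM replicates 1 to 3. All BMDM libraries were higher, but BMDM replicate 1 stood closer to the BSM libraries than to the other BMDM libraries. Its log2 fold change was 1.04 (SE 0.29, limma adjusted p = 0.0192), or 0.23 above the median of all genes, and with libraries scaled to the same sum it turned to -0.16 (limma adjusted p = 0.662). In ALEXA-Seq it measured 94.4, 141 and 104 in BMDM and 67.0, 36.9 and 38.3 in BSM, a log2 fold change of 1.27 (SE 0.33, limma adjusted p = 0.0193). The FPKM call was lost without BMDM replicate 2 (limma adjusted p = 0.0664), BMDM replicate 3 (0.0813) or BSM replicate 3 (0.0620), and the ALEXA-Seq call without either of those BMDM libraries or without BSM replicate 2 or 3.

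Among the factors activated by pathogen sensors, Irf5, which works downstream of MyD88 in inflammatory cytokine induction, was the most abundant. Its FPKM was 6.60, 11.4 and 7.94 in BMDM and 5.15, 3.45 and 3.35 in BSM. The groups did not overlap, and BMDM replicate 2 stood highest. On the log2 scale the difference was 0.94 (SE 0.28, limma adjusted p = 0.0226), close to the median of all genes (0.13 above it), and scaling to the same sum turned it to -0.18. In ALEXA-Seq the cell types overlapped, with 177, 313 and 192 in BMDM and 185, 103 and 91.4 in BSM. BSM replicate 1 was as high there as the lower BMDM libraries, and the log2 fold change of 0.87 was not called (SE 0.36, limma adjusted p = 0.0834) with all libraries but was 1.18 and called without BSM replicate 1 (limma adjusted p = 0.0101). The FPKM call was lost without BMDM replicate 2 or 3 or BSM replicate 2 or 3, with limma adjusted p of 0.0701 to 0.0762.

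Irf7, the amplifier of the interferon-alpha response that is itself induced by interferon, was low in FPKM. It measured 0.953, 2.60 and 1.25 FPKM in BMDM and 0.0310, 1.02 and 0.210 FPKM in BSM. BSM replicate 2 lay above BMDM replicate 1, so the groups overlapped, and the log2 fold change of 0.88 missed the threshold (SE 0.34, limma adjusted p = 0.0669 at the minimum of 1 FPKM). ALEXA-Seq gave a wide gap instead, with 24.0, 39.6 and 26.8 in BMDM and 4.78, 1.16 and 2.52 in BSM. There the lowest BMDM library stood well above the highest BSM library, and the log2 fold change was 3.11 (SE 0.55, limma adjusted p = 0.00399), or 2.27 above the median of all genes. It was still called with the libraries scaled to the same sum (2.04, limma adjusted p = 0.0238) and without any single library, but not after quantile normalization (1.81, limma adjusted p = 0.0858).

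The tables did not rank the Irf7 libraries alike. BSM replicate 2 had the highest FPKM of Irf7 in BSM and the lowest ALEXA-Seq value, and the ratio of the ALEXA-Seq value to the FPKM ran from 1.14 in that library to 154 in BSM replicate 1. For Irf4 the same ratio ran only from 16.4 to 19.4 over the 6 libraries and for Irf2 from 18.6 to 26.2. The size of the difference in Irf7 therefore depended on the table it was read from. It also depended on the constant added before taking logs. With 0.1 added in place of 1, the log2 fold change in FPKM was 2.14 (limma adjusted p = 0.0768 at the minimum of 1 FPKM). In ALEXA-Seq it was then 3.55 (limma adjusted p = 0.00745).

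Irf3, the constitutive factor that answers viral nucleic acid first, showed no difference that these libraries could resolve. It measured 0.528, 2.39 and 1.59 FPKM in BMDM and 0.680, 1.92 and 1.24 FPKM in BSM. The groups overlapped widely, with replicate 1 of each cell type lowest, and the log2 fold change was 0.10 (95% interval -0.72 to 0.91, limma adjusted p = 0.840), which turned negative under each other scaling and without BMDM replicate 2 or BSM replicate 1. In ALEXA-Seq Irf3 was at 13.2, 36.5 and 17.4 in BMDM and 8.70, 22.1 and 13.4 in BSM, again overlapping.

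Of the opposing pair, Irf2, the repressor, had the tightest values of the family. It measured 10.6, 10.3 and 11.5 FPKM in BMDM and 4.44, 4.72 and 4.76 FPKM in BSM. The spread within each group was small, with coefficients of variation of 5.64% and 3.79%, and no libraries of the cell types came near each other. The log2 fold change was 1.06 (SE 0.21, limma adjusted p = 0.00402), and 1.03 in ALEXA-Seq (SE 0.19, limma adjusted p = 0.00546), where it measured 210, 223 and 213 in BMDM and 116, 104 and 96.3 in BSM. Both calls held without any single library. Against the median of all genes the FPKM difference was only 0.26, and after quantile normalization it was 0.29 and not called (limma adjusted p = 0.266). With each library scaled to the same sum it was -0.09 in FPKM and -0.25 in ALEXA-Seq, not called in either.

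Irf1, the activator of the pair, was the lowest member in BMDM, at 0.802, 0.882 and 1.38 FPKM. In BSM it measured 0.127, 0.910 and 0.629 FPKM, so that only BSM replicate 1 stood clearly apart and the groups overlapped. Its log2 fold change of 0.40 was not called (95% interval -0.22 to 1.02, limma adjusted p = 0.250) and turned to -0.13 after quantile normalization or scaling to the same sum. ALEXA-Seq values were 7.36, 6.86 and 11.6 in BMDM and 0.851, 8.20 and 5.41 in BSM, with the same library lowest.

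Irf4, known best for its part in lymphocytes, plasma cells and dendritic cells, entered the FPKM comparison through BMDM alone, as no BSM library reached 3 FPKM. It measured 11.2, 4.34 and 7.41 FPKM in BMDM and 0.0345, 2.34 and 1.72 FPKM in BSM. Every BMDM library was higher, but values varied more than for any other member that passed 3 FPKM. The coefficient of variation was 44.8% in BMDM and 87.5% in BSM, where replicate 1 was nearly empty. The log2 fold change was 1.95 (SE 0.50, limma adjusted p = 0.0121), or 1.15 above the median of all genes, and 1.15 without replicate 1 of each cell type (still called in limma). With no FPKM minimum the call was lost (limma adjusted p = 0.0580), and without BMDM replicate 1 alone the adjusted p in limma was 0.0551. It stayed positive under every scaling, between 1.13 and 1.39, without being called (limma adjusted p from 0.0720 to 0.196).

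ALEXA-Seq ranked the 6 libraries for Irf4 as FPKM did, at 188, 74.9 and 122 in BMDM and 0.669, 41.9 and 31.3 in BSM. The log2 fold change of 3.19 had an SE of 1.21 (limma adjusted p = 0.0663). Without BSM replicate 1 it was smaller, 1.70, and called (limma adjusted p = 0.0101), and without BSM replicate 2 it was 4.04 and called (limma adjusted p = 0.0374). The 8 B and plasma cell markers summed to 0.494 to 8.03 FPKM in BMDM and 0.317 to 0.464 FPKM in BSM, with Igj at 0 in every library and Ms4a1, Pax5 and Sdc1 also at 0 in all BSM libraries. BMDM replicate 2, where Cd79a (2.22 FPKM) and Ebf1 (5.02 FPKM) were highest, had the lowest Irf4 of the BMDM libraries. The 6 conventional dendritic cell markers summed to 6.56 to 12.6 FPKM in BMDM and 0.247 to 1.38 FPKM in BSM, and their part in the difference in Irf4 was not tested.

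Irf8, the factor on which both cell types depend, overlapped between the cell types on the deposited scale. Its ALEXA-Seq value was 34.1, 53.2 and 36.2 in BMDM and 47.1, 46.0 and 37.8 in BSM. BMDM replicate 2 was highest and BMDM replicate 1 lowest, with the BSM libraries in between. The log2 fold change was -0.10 (SE 0.31, 95% interval -0.85 to 0.64, limma adjusted p = 0.797), and 26.4% of all genes tested had a value at most this low. It lay 0.94 below the median of all genes.

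Scaled to its library's sum, Irf8 was higher in BSM. It made up 15.2, 18.4 and 15.2 ppm of the summed ALEXA-Seq value in BMDM and 44.4, 44.0 and 39.3 ppm in BSM, a ratio of 2.62 between the means. The cell types did not overlap on that scale, as was true with BSM above for 39.8% of all genes tested. In limma the log2 fold change was -1.36 with libraries scaled to the same sum (SE 0.27, limma adjusted p = 0.00705, with 30.2% of all genes called higher in BSM), -0.86 after quantile normalization (SE 0.27, limma adjusted p = 0.0368, with 21.2%) and -0.82 with upper quartile scaling (limma adjusted p = 0.0527). On the deposited scale the sign itself was not settled, as without BMDM replicate 1 the value was 0.014. Of the 6 plasmacytoid dendritic cell markers, the summed FPKM was 11.1 to 21.8 in BMDM and 99.0 to 106 in BSM. Most of the BSM sum was the microglial gene Siglech, at 84.4 to 89.5 FPKM there and at most 0.149 FPKM in BMDM. Tcf4 and Pacsin1 were also higher in every BSM library, and Ccr9 overlapped. Bcl11a was higher in every BMDM library (mean 7.38 against 0.289 FPKM). Klk1 was at 0 in every library and Pacsin1 at 0 in every BMDM library. The part of these markers in the values of Irf8 and Irf7 was not tested.

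**Figure D2:**
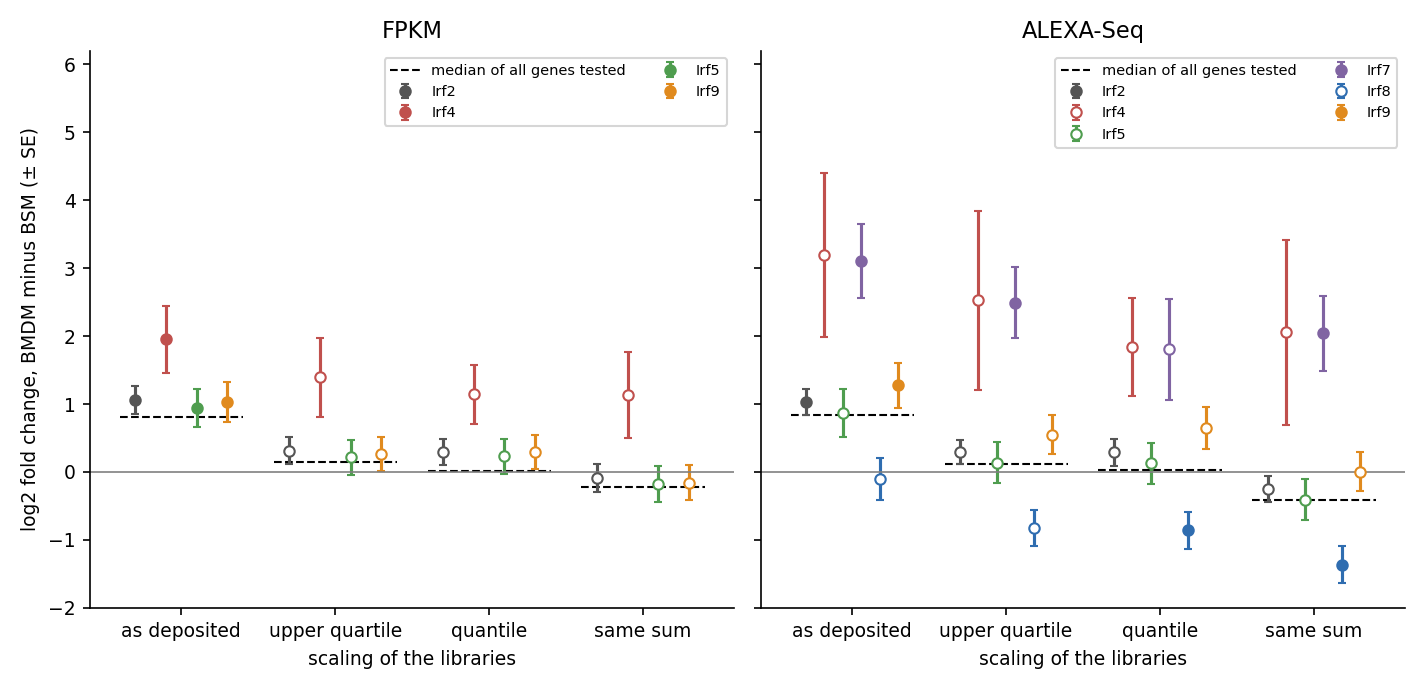
Log2 fold change (BMDM minus BSM, ± SE) of each tested IRF in FPKM (left) and ALEXA-Seq (right) under 4 scalings of the libraries, with filled points for an adjusted p under 0.05 in limma and dashed lines at the median of all genes tested. In FPKM Irf2, Irf5 and Irf9 moved down with the dashed line and were below 0 with the same sum, while Irf4 and Irf7 stayed above it and Irf8 below it under each scaling shown.

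Of the BMDM libraries, replicate 2 had the highest Irf3, Irf5, Irf7 and Irf9 in FPKM and the lowest Irf2 and Irf4. In ALEXA-Seq it had the highest Irf2, Irf3, Irf5, Irf7, Irf8 and Irf9 and the lowest Irf1 and Irf4. Its sum over all genes was the highest of the BMDM libraries in both tables. Over that sum its Irf2 was the lowest, at 77.0 ppm in ALEXA-Seq against 93.4 and 89.4 in BMDM replicates 1 and 3. BMDM replicate 2 was also the library with the highest summed markers of neutrophils and progenitors (329 FPKM) and of erythroid cells (75.4 FPKM), and their part in the IRF values was not tested. Without it the log2 fold changes in FPKM were 1.09 for Irf2, 0.75 for Irf5 and 0.86 for Irf9.

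The composition of the family was also compared, since shares within a library do not depend on its scaling. In BMDM the mean share of the summed FPKM of the 7 members was 31.6% ± 7.03 (SD, n = 3) for Irf9, 23.7% ± 2.98 for Irf2, 18.6% ± 3.50 for Irf5 and 17.4% ± 9.75 for Irf4. In BSM the same shares were 34.7% ± 5.43 (SD, n = 3), 25.0% ± 2.53, 21.6% ± 6.64 and 7.07% ± 5.99. The largest difference was that of Irf4, 10.3 percentage points higher in BMDM, but its libraries overlapped, at 27.9%, 8.64% and 15.6% in BMDM and 0.195%, 11.1% and 9.89% in BSM. None of the 7 shares separated the cell types in FPKM (two-sided exact permutation p from 0.2 to 0.7, where 0.1 is the smallest that 3 against 3 libraries allow). With ALEXA-Seq values the share of Irf7 did, at 3.35%, 4.74% and 3.89% in BMDM and 1.25%, 0.367% and 0.905% in BSM (two-sided exact permutation p = 0.1, 0.525 adjusted over the 7 shares).

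**Figure D3:**
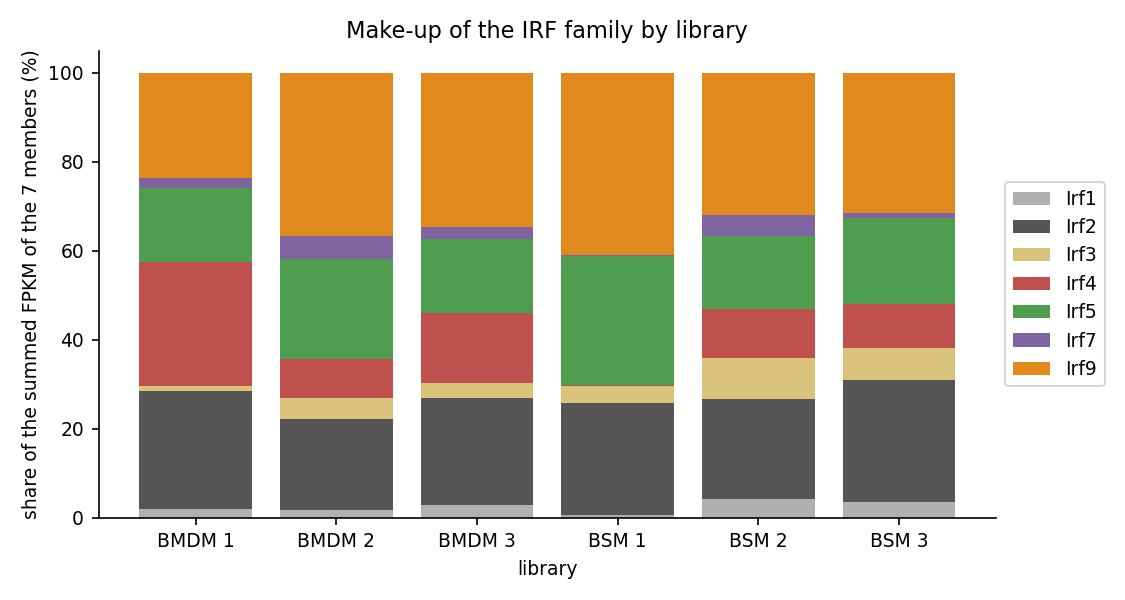
Share of each member in the summed FPKM of the 7 IRFs of the FPKM table, as stacked bars for each of the 6 libraries. Irf9, Irf2 and Irf5 made up most of each bar, and Irf4 ranged from 0.195% in BSM replicate 1 to 27.9% in BMDM replicate 1.

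The genes that feed the IRFs and those that IRFs switch on were compared by lists chosen for their place in the pathway. Over all lists 54 of 87 genes passed the FPKM minimum, of which limma called 29 for BMDM and 3 for BSM, where 45.3% and 9.22% of all genes tested were called, and their median log2 fold change was 0.97 against 0.81 for all genes. After quantile normalization the calls were 12 and 8, where 21.7% and 19.3% of all genes were called, with medians of 0.23 and 0.015. Of the 54 genes 21 passed the minimum through BMDM alone and 2 through BSM alone (2124 and 783 of the 6364 genes), and a gene that passed through 1 cell type alone had to have its highest library there, which tilts these counts toward BMDM.

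The sensors that activate IRF3, IRF5 and IRF7 split in both directions. Tlr3, the endosomal receptor for double-stranded RNA, had 0.448, 0.404 and 0.536 FPKM in BMDM and 24.5, 13.2 and 12.4 FPKM in BSM, a log2 fold change of -3.54 (SE 0.30, limma adjusted p = 6.53e-05). Tlr7, a receptor for single-stranded RNA, had 15.1, 13.8 and 13.5 FPKM in BMDM and 72.6, 52.2 and 47.3 FPKM in BSM (log2 fold change -1.92, limma adjusted p = 0.000488). Its relative Tlr8 went the other way, with 9.10, 8.30 and 6.27 FPKM in BMDM and 0.0291 to 0.0300 FPKM in BSM (log2 fold change 3.10, limma adjusted p = 5.39e-05). These 3 genes kept their direction and their call after quantile normalization. The third gene called higher in BSM was Tmem173 (STING), with a log2 fold change of -0.71 (limma adjusted p = 0.0486). Of 16 sensors and adaptors tested, 5 were called higher in BMDM, Tlr8, the interleukin receptor kinase Irak4 (log2 fold change 1.98), the RNA helicase Ifih1 (1.36), the adaptor Ticam2 (1.29) and the ubiquitin ligase Traf6 (0.69), and the median over the list was 0.43. After quantile normalization 2 were called for BMDM, Tlr8 and Irak4, and 6 for BSM, with a median of -0.33. Ifih1 was then at 0.51, Ticam2 at 0.51 and Traf6 at -0.04, none of them called, while Tlr4 (-1.59), Tlr9 (-0.75) and the chaperone Unc93b1 (-0.81) joined Tlr3, Tlr7 and Tmem173 as called for BSM. The deposited-scale calls of Tmem173 and Traf6 were lost when any library other than BSM replicate 1 was left out.

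Of 5 genes tested for kinases of the IRFs and their scaffolds, Tank (log2 fold change 2.03, limma adjusted p = 0.00364) and Ikbkb (1.23, limma adjusted p = 0.00325) were called higher in BMDM. After quantile normalization Tank was still called (1.20, limma adjusted p = 0.0270) and Ikbkb was not (0.44), and Ikbkb turned to -0.04 with libraries scaled to the same sum. Tbk1, the principal kinase of IRF3, had 4.58, 4.22 and 4.73 FPKM in BMDM and 2.28, 4.37 and 4.66 FPKM in BSM and was not called (log2 fold change 0.25, limma adjusted p = 0.467). Its values overlapped, with BSM replicate 1 lowest, and the fold change was -0.53 after quantile normalization, also not called. Chuk (0.70) and Azi2 (0.36) were not called either.

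The partners of IRF9 in interferon signalling were led by Jak2, a kinase of cytokine receptors, with 10.6, 15.8 and 12.8 FPKM in BMDM and 1.74, 4.09 and 4.38 FPKM in BSM, a log2 fold change of 1.72 (SE 0.32, limma adjusted p = 0.00327) that was 0.92 after quantile normalization (limma adjusted p = 0.0214). Stat2 had 6.75, 8.08 and 7.79 FPKM in BMDM and 5.04, 1.78 and 1.44 FPKM in BSM (log2 fold change 1.30, limma adjusted p = 0.0175). Neither overlapped between the cell types, but Stat2 was at 0.64 and not called after quantile normalization (limma adjusted p = 0.228), and its call was lost without BMDM replicate 2 or 3 or BSM replicate 2 or 3 (limma adjusted p of 0.0546 to 0.0676). The receptor subunit Ifnar2 (log2 fold change 0.60) completed the 3 of 7 genes called higher in BMDM, but turned to -0.16 after quantile normalization, and to -0.70 with the call for BSM when libraries were scaled to the same sum (limma adjusted p = 0.0280). The 4 not called were Ifnar1 (log2 fold change -0.09), Ifngr1 (-0.32), Ifngr2 (0.73) and Jak1 (0.47), of which Ifngr1 was called for BSM after quantile normalization (-1.07, limma adjusted p = 0.00958).

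Of the DNA-binding partners of IRF4 and IRF8, 3 of 8 could be tested, with Ikzf1 (log2 fold change 0.71, limma adjusted p = 0.0393) and Etv6 (1.09, limma adjusted p = 0.00927) called higher in BMDM. After quantile normalization 0 of the 3 were called in limma (0 also at an unadjusted p under 0.05), with Ikzf1 at -0.03 and Etv6 at 0.38. Sfpi1, which encodes PU.1, had 2.16, 5.24 and 3.15 FPKM in BMDM and 3.07, 1.65 and 1.74 FPKM in BSM. These values overlapped, and its log2 fold change of 0.49 was not called (limma adjusted p = 0.238). Negative regulators were tested for 5 genes, and the phosphatase Ptpn6 (1.93, limma adjusted p = 0.00314), the ubiquitin ligase Trim21 (1.04) and the SUMO ligase Pias1 (0.78) were called higher in BMDM. Otud5 (0.88) and Tnfaip3 (-0.36) were not called. After quantile normalization Ptpn6 was still called (1.15), Trim21 (0.23) and Pias1 (0.03) were not, and Tnfaip3 was called for BSM (-1.16). The 1 IRF2-binding gene tested, Irf2bp2, had a log2 fold change of 0.46 and was not called (limma adjusted p = 0.208).

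Of the targets of IRFs at ISRE elements 17 were tested, 13 of them through BMDM alone, so that most had to have their highest library in BMDM. On the deposited scale 14 of the 17 were called higher in BMDM, where 45.3% of all genes were, and 0 lower, where 9.22% were (0 also at an unadjusted p under 0.05 in limma), with a median of 1.51. Ifi203 had 244, 129 and 249 FPKM in BMDM and 0.00400, 0.607 and 0.913 FPKM in BSM (log2 fold change 7.10, limma adjusted p = 6.28e-06). Oas3, of the RNA-sensing oligoadenylate synthetases, had 86.2, 111 and 94.0 FPKM in BMDM and was listed at 0 in BSM replicate 1 and at 0.142 and 0.573 FPKM in the others (log2 fold change 6.33, limma adjusted p = 2.91e-06). Both belong to families of similar genes whose reads Cufflinks could divide, so their single values are uncertain. The 3 not called were Ifit1 (0.90), Gbp3 (0.62) and Oasl1 (1.39, limma adjusted p = 0.0513). After quantile normalization 7 of the 17 were called higher in BMDM, where 21.7% of all genes were, with a median of 0.86. The interferon genes themselves were at or near 0: Ifna2, Ifna4, Ifna5 and Ifng were listed at 0 in every library, Ifnb1 and Ifna1 did not pass 0.0231 FPKM, and Ifnk reached 0.700 FPKM in BMDM replicate 1.

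**Figure D4:**
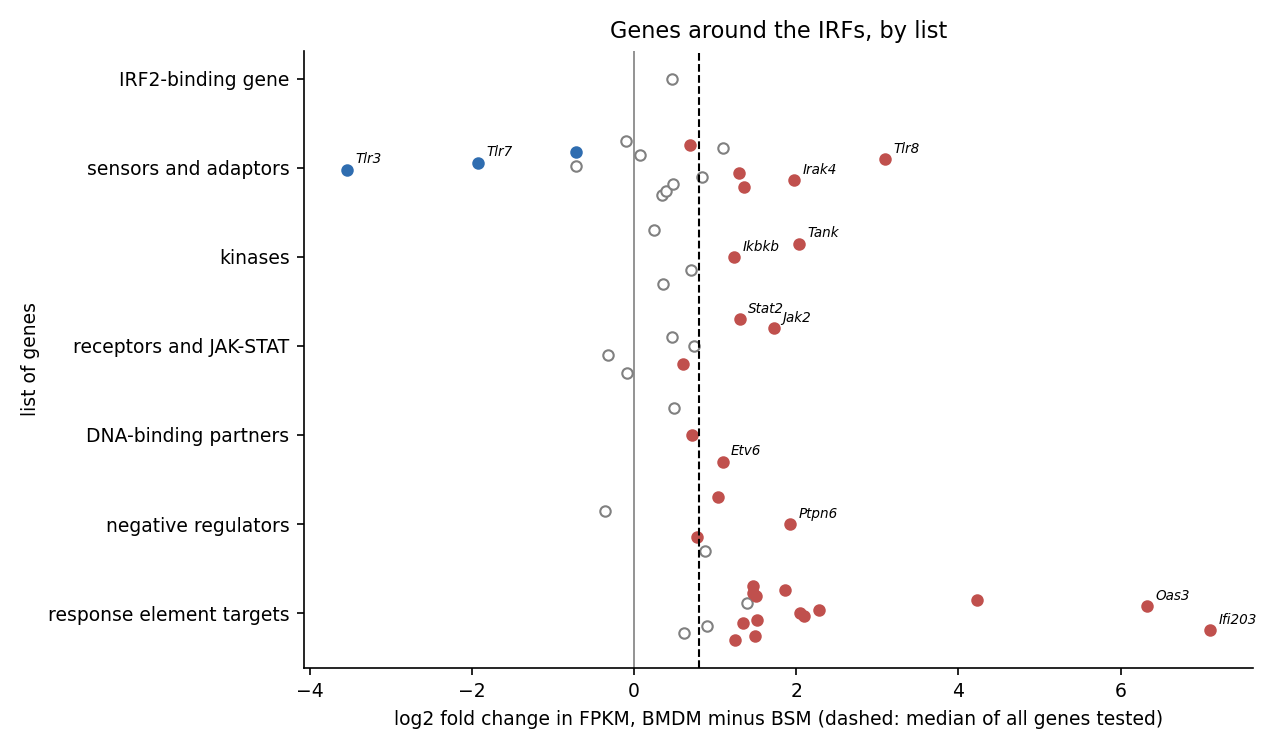
Log2 fold change in FPKM (BMDM minus BSM) of the 54 tested genes around the IRFs, one row of points per list, with red for genes called higher in BMDM, blue for genes called higher in BSM and open points for genes not called in limma. The 3 blue points are sensors or adaptors (Tlr3, Tlr7 and Tmem173), and the response element targets, of which 13 of 17 passed the minimum through BMDM alone, lie mostly to the right of the dashed median of all genes, on the deposited scale that favors BMDM.

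The genes whose FPKM ran closest to each tested member over the 6 libraries, by Euclidean distance on log2(FPKM + 1) among 6364 genes, were for Irf2 the spliceosomal isomerase Ppwd1 (distance 0.201), Cab39 (0.254) and the deubiquitinase Usp7 (0.260). For Irf5 they were the splicing helicase Snrnp200 (0.316), D4Ertd22e (0.336) and the TFIID subunit Taf2 (0.346), and for Irf9 the glucosidase subunit Ganab (0.454) and Brd8 (0.472). Irf4 had no neighbour so near, with the adhesion molecule Ceacam2 at 0.685, the replication protein Rpa1 at 0.716 and the centromere protein Cenpc1 at 0.841. Like Irf4, these 3 were nearly empty in BSM replicate 1, with 0.0968, 0.0688 and 0.0614 FPKM, against 1.23 to 2.66 FPKM in the other BSM libraries. The points of such a distance share their libraries, and likeness by this measure is a description.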

How the data were processed

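Gene expression was measured by RNA-Seq in 3 BMDM and 3 BSM libraries, grouped by their labels. Per the submitters' processing notes the reads were processed with CASAVA 1.7.0, TopHat 1.3.1, Bowtie 0.12.7 and Cufflinks 1.0.3 on mm9. The authors deposited FPKM from Cufflinks, scaled by exon length and by mapped fragments. The authors also deposited a linear ALEXA-Seq expression signal per gene, whose unit and normalization are not given in the sources used here. The members were therefore not ranked by it. The choice of genes by highest value and the shares of a sum do set its values of different genes side by side. They assume that these values are comparable. The study's records give read totals per library, highest for BSM replicate 1, but neither table holds read counts, so the reads behind a value are unknown.

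The starts in the FPKM table are counted from 0, since 7538 of 17762 genes matched by symbol have the span they have in GENCODE M21 when read so, against 265 otherwise; 1 was added. Groups were compared with limma 3.58.1 (R 4.3.3, mean-variance trend) on log2(value + 1), which understates the change of low genes, for the 6364 genes with at least 3 FPKM in at least 1 library and as many genes by highest ALEXA-Seq value. P-values were adjusted by Benjamini-Hochberg over all genes tested and called below 0.05. Shares were compared with two-sided exact permutation tests. The labels call the libraries biological replicates. The limma comparison was tried on simulated data with known changes, and the permutation tests were not. Python 3.11.15, pandas 2.3.3, numpy 2.4.6 and matplotlib 3.10.9 were used. Upstream sequences are from RefSeq (GRCm38.p6), where all 8 members matched, and were not combined with mm9 positions.

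The members and lists were chosen with earlier results of these data known. Named were all members, in each list the 2 largest log2 fold changes per direction among genes called in both tables, genes that a count of 5 or fewer refers to, the 3 nearest genes of each tested member and markers whose list level is given. Tbk1, Sfpi1, the interferon genes and the markers named in single libraries were added after their values were seen. A few genes that these rules or lists name are not reported here. Alternatives were a pseudocount of 0.1, other minimums, upper quartile, quantile and same-sum scaling, no trend, replicate number or sex as a term, and leaving out libraries.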

Additional observations from a re-analysis of the deposited data

How the results depend on the processing

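The calls of IRFs depended most on how the libraries were scaled. The 4 members called higher in BMDM by FPKM were 0 with upper quartile scaling, 0 after quantile normalization and 0 with the same sum (1, 1 and 0 at an unadjusted p under 0.05), and 1 (Irf2) with no FPKM minimum. The 3 members called by ALEXA-Seq were 1 with upper quartile scaling, 0 after quantile normalization (2 at an unadjusted p under 0.05) and 1 with the same sum, and 5 without replicate 1 of each cell type, while those higher in BSM were 1 (Irf8) after quantile normalization and 1 with the same sum. Leaving out 1 library at a time gave 2 to 4 members by FPKM and 2 to 5 by ALEXA-Seq, with 2 by FPKM without BMDM replicate 2, BMDM replicate 3 or BSM replicate 3 (Irf2 and Irf4 each time) and 5 by ALEXA-Seq without BSM replicate 1. Pathway genes called higher in BMDM were 13, 12 and 8 in place of 29 with upper quartile, quantile and same-sum scaling, and those higher in BSM 6, 8 and 11 in place of 3, with 21 to 33 and 2 to 4 when 1 library was left out. Several log2 fold changes of the members and of the pathway genes named changed sign. Of these, Ifnar2 and Jak1 with the same sum and Tlr9 after quantile normalization were called (for BSM). In FPKM with the same sum they were -0.13 (Irf1), -0.092 (Irf2), -0.66 (Irf3), -0.18 (Irf5), -0.16 (Irf9), -0.044 (Ikbkb), -0.54 (Irf2bp2), -0.27 (Traf6), -0.82 (Tbk1), -0.48 (Chuk), -0.86 (Azi2), -0.70 (Ifnar2), -0.24 (Ifngr2), -0.77 (Jak1), -0.48 (Sfpi1), -0.58 (Ikzf1), -0.44 (Pias1), -0.27 (Otud5) and -0.40 (Gbp3). After quantile normalization they were -0.13 (Irf1), -0.50 (Irf3), -0.25 (Irf2bp2), -0.041 (Traf6), -0.53 (Tbk1), -0.096 (Chuk), -0.38 (Azi2), -0.16 (Ifnar2), -0.071 (Ifngr2), -0.28 (Jak1), -0.25 (Sfpi1), -0.031 (Ikzf1), -0.029 (Gbp3) and -0.75 (Tlr9, whose values under the other alternatives are not given here). With upper quartile scaling they were -0.39 (Irf3), -0.18 (Irf2bp2), -0.43 (Tbk1), -0.060 (Chuk), -0.43 (Azi2), -0.24 (Ifnar2), -0.33 (Jak1), -0.13 (Sfpi1), -0.13 (Ikzf1), -0.0095 (Pias1) and -0.035 (Gbp3). Without BMDM replicate 2 they were -0.16 (Irf3) and 0.089 (Ifnar1), without BSM replicate 1 -0.11 (Irf3), -0.0021 (Tbk1) and 0.14 (Ifnar1), and without replicate 1 of each cell type -0.012 (Tbk1) and 0.088 (Ifnar1). In ALEXA-Seq they were -0.25 (Irf2) and -0.41 (Irf5) with the same sum, and 0.014 and 0.072 for Irf8 without BMDM replicate 1 and without replicate 1 of each cell type. The calls of Tmem173, Traf6, Ifnar2 and Ikzf1 were lost when any library other than BSM replicate 1 was left out, that of Ifih1 without BMDM replicate 1 or 3, that of Trim21 when any 1 BMDM library was left out and that of Pias1 without BMDM replicate 2 or 3 or BSM replicate 2. Leaving out 1 library at a time, Irf3 ranged from -0.16 to 0.41, Tbk1 from -0.0021 to 0.39 and Ifnar1 from -0.22 to 0.14 in FPKM, and Irf8 from -0.30 to 0.014 in ALEXA-Seq. The cause was not tested. The same sum in ALEXA-Seq and the removal of replicate 1 of each cell type were chosen after seeing the data. Without replicate 1 of each cell type the FPKM count stayed at 4 and the pathway counts were 34 and 4. The differences between cell types in the members' shares moved by less than the larger of the group SDs under the alternatives run, but some changed sign, to 0.052 percentage points for Irf1 without BSM replicate 2, 0.28 for Irf2 without BMDM replicate 2, 0.77 for Irf5 without BSM replicate 1, and for Irf9 to 0.81 in ALEXA-Seq, 2.89 by medians, 0.90 without BMDM replicate 1 and 0.0073 without BSM replicate 1. The shares themselves differed between tables, with Irf5 at a mean of 18.6% of the summed members in BMDM in FPKM and 30.1% in ALEXA-Seq, and Irf9 at 31.6% and 15.1%.

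The replicate numbers did not pair the samples (correlations of -0.0195, -0.00836 and 0.134 between same-numbered libraries). With the replicate number as a block the counts were 4 by FPKM, 3 by ALEXA-Seq and 27 and 3 for the pathway, and Irf7 was called in FPKM (limma adjusted p = 0.0224, and 0.0406 with sex as a term). The low FPKM of Irf1, Irf3 and Irf7, all under 3, limits what can be said of them.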
